A study of Mus musculus with 9 samples.

Results

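Light responses of rod photoreceptors run through a chain of proteins that is built from 9 genes examined here: the rod transducin subunits Gnat1, Gnb1 and Gngt1, the rod phosphodiesterase subunits Pde6a, Pde6b and Pde6g, the cyclic nucleotide-gated channel subunit Cnga1, and the shut-off proteins Grk1 and Sag. They were chosen by gene symbol, and all 9 were among the 13089 genes listed in each library's table. RNA was sequenced from whole eyes of wild-type female mice of the inbred strains C57BL/6J, A/J and BALB/c at 4 weeks of age, as a comparison of backgrounds whose retinas degenerate at different rates. There were 3 libraries per strain, each from poly(A) RNA of 5 pooled mice, named here by strain and replicate number. Whether a strain's libraries came from separate pools is not in the labels, so the spread that the p-values rest on may be technical.

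In the rod outer segment, absorbed light leads to the activation of transducin, whose alpha subunit removes the inhibition that the gamma subunit holds on phosphodiesterase 6. The enzyme then hydrolyses cyclic GMP, the channels close and the cell hyperpolarises. A kinase and an arrestin, encoded by Grk1 and Sag, act in turn to end signalling. Rods are the most abundant photoreceptors of the mouse retina, but whole eyes also hold lens, cornea, pigment epithelium and muscle. In such tissue, fewer rods and less RNA per rod cannot be told apart.

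The values are RPKM, a read number set relative to gene length and to the mapped reads of the library, so levels of different genes can be set side by side. The depth of the libraries is unknown. Libraries did not agree equally well within strains: pairs of BALB/c libraries had rank correlations over genes of 0.990 to 0.996, pairs of A/J libraries 0.916 to 0.990, and pairs of C57BL/6J libraries 0.910 to 0.981. Genes in such a correlation are not independent. The first principal component of all genes held 49.1% of the variance and set A/J 1 and A/J 2 (scores of -42.4 and -51.4) and C57BL/6J 3 (56.4) apart from the other 6 libraries, which lay between -7.8 and 14.8. Deviations of genes from their mean also followed transcript GC content, with rank correlations of -0.65 and -0.72 in A/J 1 and A/J 2 and 0.46 in A/J 3. For the BALB/c libraries the values, from library 1 to library 3, were 0.09, 0.56 and 0.54. Those of the C57BL/6J libraries, listed likewise, were -0.30, 0.24 and 0.39. Results that rest on these libraries are given with and without them. Markers of bipolar cells, Mueller glia, pigment epithelium, lens, cornea and muscle were all above 0 in each library.

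The mean levels of the 9 genes spanned 91.5 to 3663 RPKM. Gnat1, the alpha subunit that carries the signal to the phosphodiesterase, was the most abundant, with a rank between 12 and 17 among all listed genes. Sag, rod arrestin, followed at 1796 RPKM and Pde6g, the inhibitory phosphodiesterase subunit, at 1429 RPKM. Gnb1, a G protein beta subunit that many cell types use, was at 1053 RPKM. The catalytic subunit Pde6b (449 RPKM) and Gngt1, the rod gamma subunit (405 RPKM), came next, then Cnga1 (188 RPKM) and the other catalytic subunit Pde6a (187 RPKM). Grk1, the G protein-coupled receptor kinase of the cascade, was the lowest, with ranks between 338 and 729. Gnat1 was the highest and Grk1 the lowest of the 9 in all 9 libraries.

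Of the 8 pairs of neighbours in this order, 2 had ranges over the 9 libraries that did not overlap, Gnat1 above Sag and Gnb1 above Pde6b. Without C57BL/6J 3 the number was 4. Cnga1 was above Pde6a in 2 libraries only, A/J 1 and A/J 2, and their places swap without A/J 1, A/J 2, BALB/c 1 or C57BL/6J 1, and when genes are ordered by the median or the mean log2 value. Gngt1 was above Pde6b in 5 libraries and below it in 4. The place of Sag followed strain: it was number 2 of the 9 genes in every A/J and BALB/c library, number 3 in C57BL/6J 1 and C57BL/6J 2, and number 4 in C57BL/6J 3, where Pde6g and Gnb1 were above it.

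**Figure D1:**
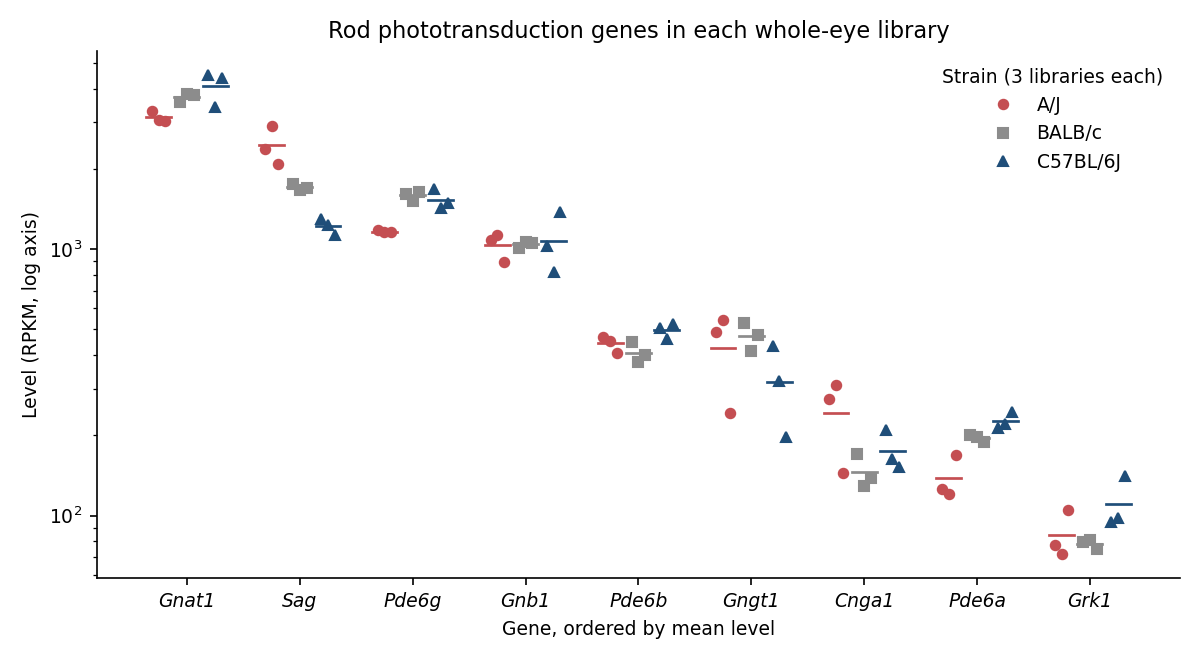
Level of each of the 9 genes in RPKM (log axis) in every library, with genes ordered by mean level; points are libraries, 3 per strain, and short lines are strain means. Sag falls from A/J (2092 to 2903 RPKM) through BALB/c (1675 to 1752 RPKM) to C57BL/6J (1134 to 1296 RPKM) with no overlap, while Gngt1, Cnga1 and Gnb1 overlap between all strains.

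The highest over the lowest library differed between the genes. It was 2.74 for Gngt1, 2.56 for Sag and 2.39 for Cnga1, against 1.39 for Pde6b, 1.45 for Pde6g and 1.49 for Gnat1. RefSeq promoters (mouse build GRCm38.p6) of 6 of the 9 genes were searched, and those of Gnat1, Pde6g and Pde6a were not. In each of the 6, the 250 bases before the start of transcription were searched on both strands. The letters sought are bound by the photoreceptor transcription factors CRX (TAATCC) and NRL (TGCTGA). Shown are the genes with the widest ranges, Sag (chr1:87803430-87803679, plus strand), Gngt1 (chr6:3993758-3994007, plus strand) and Cnga1 (chr5:72642753-72643002, minus strand), and the gene with the narrowest, Pde6b (chr5:108388123-108388372, plus strand). They are written 5′ to 3′ with the matches in capitals; GGATTA is the CRX-type match read on the opposite strand, and none of the matches overlap.
Sag: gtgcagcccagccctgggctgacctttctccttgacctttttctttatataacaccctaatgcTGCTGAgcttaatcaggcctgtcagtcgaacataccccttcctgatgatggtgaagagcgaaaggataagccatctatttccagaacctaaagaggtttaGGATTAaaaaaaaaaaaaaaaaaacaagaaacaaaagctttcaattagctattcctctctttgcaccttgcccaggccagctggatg
Gngt1: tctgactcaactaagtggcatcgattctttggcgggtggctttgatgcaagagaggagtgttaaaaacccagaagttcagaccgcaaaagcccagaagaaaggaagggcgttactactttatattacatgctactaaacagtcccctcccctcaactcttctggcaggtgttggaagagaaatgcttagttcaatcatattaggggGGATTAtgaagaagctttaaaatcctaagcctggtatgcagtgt
Cnga1: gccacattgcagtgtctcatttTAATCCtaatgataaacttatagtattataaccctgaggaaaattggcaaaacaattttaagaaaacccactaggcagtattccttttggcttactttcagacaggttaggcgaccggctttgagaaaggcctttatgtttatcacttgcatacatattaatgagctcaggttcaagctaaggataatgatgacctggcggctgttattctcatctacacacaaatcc
Pde6b: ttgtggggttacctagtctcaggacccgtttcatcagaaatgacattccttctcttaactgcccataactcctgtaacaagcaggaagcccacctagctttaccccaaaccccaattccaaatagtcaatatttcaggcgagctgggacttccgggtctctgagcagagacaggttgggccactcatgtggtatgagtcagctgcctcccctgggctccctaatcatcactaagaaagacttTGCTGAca

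A CRX-type match lay in 3 of the 6 promoters, 87 bases before the start in Sag, 44 in Gngt1 and 228 in Cnga1. An NRL-type match lay in 2, 187 bases before the start in Sag and 8 in Pde6b. Sag alone of the 6 held both, and Gnb1 and Grk1 held neither. Over 32851 mouse promoters of the same length, 6.3% held the CRX-type letters, 16.1% the NRL-type letters and 1.0% both. A match is a run of letters, and no binding was measured.

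Among the strains, Sag differed: it was 2.16-fold higher in A/J than in C57BL/6J. None of the other 8 genes passed the test in any comparison. Differences were tested with limma on log2 of scaled RPKM plus 0.5, across 12920 genes with Benjamini-Hochberg adjustment, and called at an adjusted p under 0.05. Between A/J and C57BL/6J, 1 of the 9 genes was called, against 2.69% of all genes tested. Between BALB/c and C57BL/6J it was 0 of 9, against 3.09% of all genes, and between A/J and BALB/c 0 of 9, against 2.48%. With limma's F test over all strains at once it was 1 of 9, again Sag (adjusted p = 0.011), against 4.47% of all genes, and 0 of 9 without A/J 1. These counts depend on which libraries are used, and the counts over all genes move with them. Without A/J 3 they were 3, 1 and 4 of 9, when 3630, 630 and 4463 of 12884 genes were called. Without C57BL/6J 3 they were 1, 0 and 2 of 9, and 287, 395 and 605 of 12829 genes. With A/J 3 and C57BL/6J 3 left out together they were 7, 2 and 4 of 9, and 5043, 1877 and 7700 of 12790 genes. Without A/J 1 and A/J 2 none of the 9 was called. The median log2 change of the 9 genes was -0.06, 0.05 and -0.09 in the same order of comparisons, beside -0.01 in each for all genes tested.

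More of the 9 genes had libraries that did not overlap between strains than were called, and the same held over all genes. In RPKM, 4 of the 9 genes did not overlap between A/J and C57BL/6J, where the same was true of 16.3% of all genes: Gnat1, Pde6a and Pde6g were lower in A/J and Sag was higher. The same 4 genes, in the same directions, did not overlap between A/J and BALB/c, against 33.1% of all genes. Between BALB/c and C57BL/6J, Pde6a, Pde6b and Grk1 were lower in every BALB/c library and Sag was higher, again 4 of 9, against 33.4% of all genes. After scaling, Pde6a and Pde6b overlapped in that comparison, and Gngt1 and Pde6g were higher in every BALB/c library. The share of all genes that did not overlap after scaling was not counted. The comparisons share libraries, so their counts do not stand on separate samples.

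**Figure D2:**
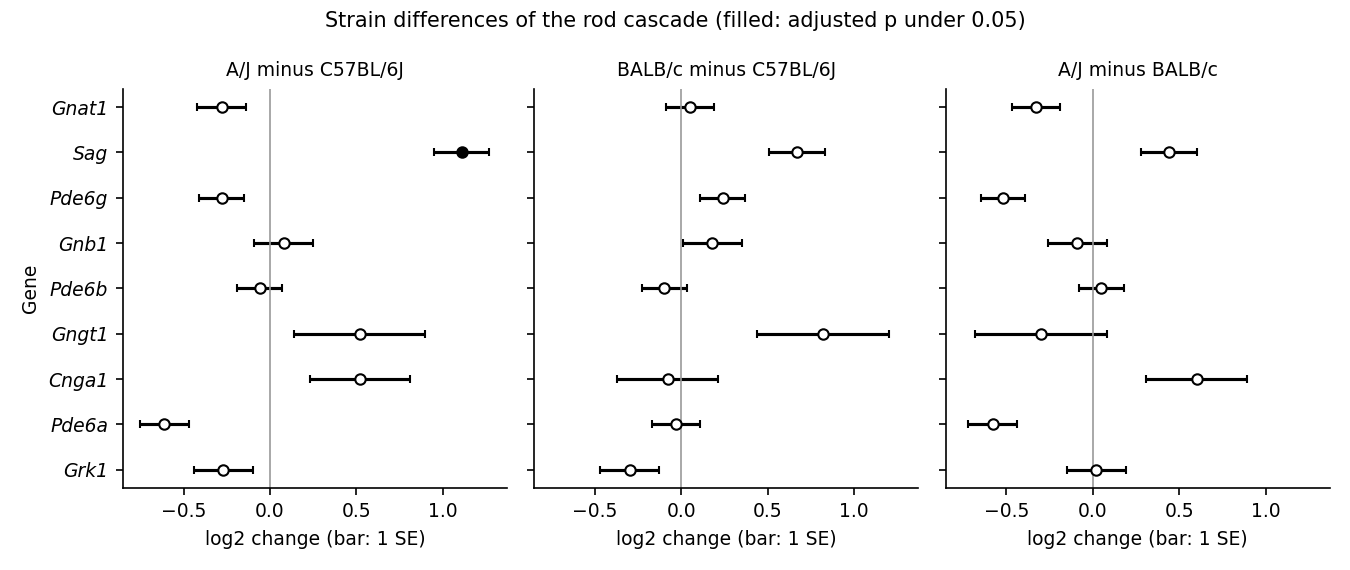
Log2 change of each gene in the 3 strain comparisons, on the log2(scaled RPKM + 0.5) scale, with bars of 1 SE from limma; filled points passed the test at an adjusted p under 0.05. Sag in A/J against C57BL/6J, at 1.11, is the only filled point, and Gngt1 has the widest bars (SE 0.38).

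Sag encodes rod arrestin, which caps the signal upstream of transducin. It measured 2381.65, 2903.11 and 2092.43 RPKM in A/J 1, 2 and 3. In BALB/c it measured 1751.70, 1675.31 and 1699.54 RPKM, and in C57BL/6J 1296.05, 1231.85 and 1133.71 RPKM. Every A/J library was therefore above every BALB/c library, and every BALB/c library above every C57BL/6J library. The means were 2459 ± 411, 1709 ± 39 and 1221 ± 81.8 RPKM (SD, n = 3 each). The log2 change from C57BL/6J to A/J was 1.11 (SE 0.16, limma adjusted p = 0.0065, higher in 3 of 3 libraries). The steps in between did not pass: BALB/c was above C57BL/6J by 0.67 (SE 0.16, limma adjusted p = 0.072) and A/J was above BALB/c by 0.44 (SE 0.16, limma adjusted p = 0.19).

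How far the Sag call rests on single libraries was measured. With any 1 of the 9 libraries left out, the A/J to C57BL/6J change stayed between 0.98 and 1.24 with limma adjusted p-values of 0.0048 to 0.042. Without A/J 3 and C57BL/6J 3 it was 1.12 (limma adjusted p = 0.00028). Without A/J 1 and A/J 2, which leaves a lone A/J library assumed to vary like the other strains, it was 0.84 and the call was lost (limma adjusted p = 0.19). It was also lost when only the 6 libraries of these strains were fitted (1.11, limma adjusted p = 0.069). Correcting each library for transcript GC content left it at 1.07 (limma adjusted p = 0.0064). Without A/J 3, Sag also passed between BALB/c and C57BL/6J (0.67, limma adjusted p = 0.04) and between A/J and BALB/c (0.57, limma adjusted p = 0.031).

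The order of Sag over the strains was not that of the summed level of 16 other rod genes. Singly, these genes did not all change alike. Against C57BL/6J, 4 were higher in A/J and 12 lower, and against BALB/c 7 were higher in A/J and 9 lower. Over all 12920 genes tested, 6604 and 6594 were lower in A/J in these comparisons. The 16 rod genes outside phototransduction used as a reference, such as Prph2, Nrl and Reep6, summed to 2597 to 3297 RPKM in A/J, 3373 to 3660 RPKM in BALB/c and 3445 to 4920 RPKM in C57BL/6J, with A/J the lowest. Their geometric mean was 99.1 to 112.8 RPKM in A/J, 110.6 to 111.4 RPKM in BALB/c and 118.6 to 165.1 RPKM in C57BL/6J. By that measure A/J 3 was above every BALB/c library. Scaled to the geometric mean of those genes, the Sag change between A/J and C57BL/6J was 1.36 (limma adjusted p = 0.012). Sums of bipolar cell markers (7 genes) overlapped between all strains, at 262 to 324, 247 to 281 and 221 to 319 RPKM for A/J, for BALB/c and for C57BL/6J. Lens markers (8 genes) summed to 111489 to 120320, 134594 to 138913 and 80460 to 111228 RPKM in the same order of strains, with BALB/c the highest. The sums of Mueller glia (6 genes), pigment epithelium (5), cornea and conjunctiva (6) and muscle (6) markers overlapped between A/J and C57BL/6J. Of these markers, Cabp5 of bipolar cells was called higher in A/J than in C57BL/6J (1.28, limma adjusted p = 0.017, but 0.81 and 0.31 without A/J 1 and A/J 2), and Prkca of bipolar cells (-1.21) and Krt13 (-2.71) and Krt4 (-2.68) of the ocular surface were called lower. The part of these cell types in the Sag difference was not tested.

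Ratios within a library do not depend on its size factor. Sag over Gnat1 was 0.69 to 0.953 in A/J, 0.438 to 0.489 in BALB/c, then 0.257 to 0.359 in C57BL/6J, with no overlap. Of the summed RPKM of the 9 genes, Sag made up 25.4% to 29.8% in A/J, 17.9% to 18.6% in BALB/c, then 11.7% to 15.1% in C57BL/6J. The sum of all 9 did not separate the strains, at 8244 to 9738, 9283 to 9492 and 8172 to 9978 RPKM. Without Sag, the other 8 genes summed to 6152 to 7009 RPKM in A/J, below the 7608 to 7792 RPKM of BALB/c, while C57BL/6J spanned 6940 to 8682 RPKM and overlapped both. These ratios and sums were described and not tested.

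Grk1 adds the phosphates that Sag recognises. Its RPKM were 77.49, 71.81 and 105.10 in A/J and 79.54, 81.01 and 74.98 in BALB/c. The C57BL/6J libraries had 94.68, 97.55 and 141.37. C57BL/6J 3 was the highest of all, and A/J 3 was the only A/J library inside the C57BL/6J range. The log2 change against C57BL/6J was -0.27 in A/J (SE 0.17, limma adjusted p = 0.36) and -0.30 in BALB/c (SE 0.17, limma adjusted p = 0.51). Between A/J and BALB/c it was 0.02 (SE 0.17, limma adjusted p = 0.94), and -0.12 without A/J 3. The shut-off pair thus differed in its proportions: Sag over Grk1 was 19.9 to 40.4 in A/J, 20.7 to 22.7 in BALB/c, then 8.02 to 13.7 in C57BL/6J, where C57BL/6J did not overlap either of the other strains.

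**Figure D3:**
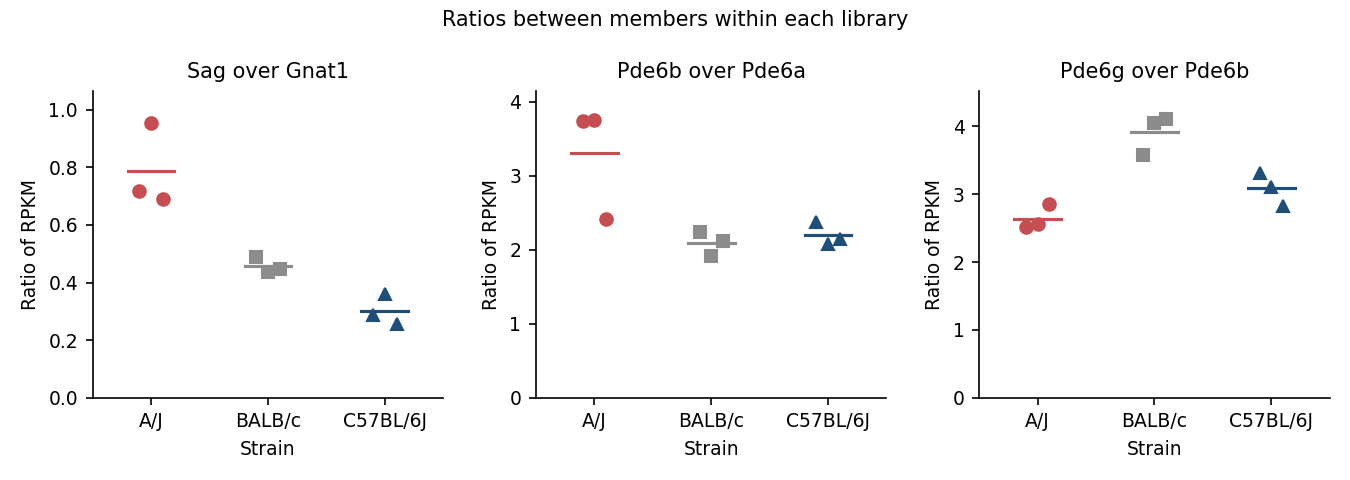
Ratios of RPKM within each library for Sag over Gnat1, Pde6b over Pde6a and Pde6g over Pde6b; points are libraries, short lines are means of 3 libraries, and the axes start at 0. Sag over Gnat1 separates the strains without overlap, from 0.69 to 0.953 in A/J down to 0.257 to 0.359 in C57BL/6J, and Pde6g over Pde6b is highest in BALB/c (3.58 to 4.11).

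Pde6a, a catalytic subunit of the rod phosphodiesterase, measured 125.53, 120.66 and 168.73 RPKM in A/J, 201.18, 197.25 and 188.83 RPKM in BALB/c, and 212.82, 220.98 and 245.43 RPKM in C57BL/6J. All A/J libraries were below all others, with A/J 3 the nearest to them. The log2 change from C57BL/6J to A/J was -0.61 (SE 0.14, limma adjusted p = 0.059) and from BALB/c to A/J -0.58 (SE 0.14, limma adjusted p = 0.072), both just short of the threshold. The A/J to C57BL/6J change passed with the values left unscaled (-0.72, limma adjusted p = 0.034), after the GC correction (-0.66, limma adjusted p = 0.041) and without A/J 3 (-0.75, limma adjusted p = 0.0085). It did not pass after the GC correction with the replicate block (-0.66, limma adjusted p = 0.065), scaled to the rod reference genes (-0.36, limma adjusted p = 0.18), without A/J 1 and A/J 2 (-0.36, limma adjusted p = 0.62) or in a fit of these strains alone (-0.61, limma adjusted p = 0.32). The A/J to BALB/c change passed without A/J 3 (-0.72, limma adjusted p = 0.0084) and without C57BL/6J 3 (-0.58, limma adjusted p = 0.048), and was -0.33 without A/J 1 and A/J 2 (limma adjusted p = 0.73). Between BALB/c and C57BL/6J it was -0.03 (SE 0.14, limma adjusted p = 0.97).

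Pde6b, the partner of Pde6a in the catalytic core, varied little. Its RPKM were 469.31, 452.24 and 406.28 in A/J and 449.92, 376.79 and 400.55 in BALB/c. The C57BL/6J libraries had 506.15, 458.84 and 525.08. The log2 changes were -0.06, -0.10 and 0.05 in A/J against C57BL/6J, BALB/c against C57BL/6J and A/J against BALB/c (SE 0.13 each), with limma adjusted p-values of 0.78, 0.83 and 0.83, and the first became 0.20 when scaled to the rod reference genes. A single copy of each subunit goes into the rod enzyme, but the RPKM were not equal. Pde6b over Pde6a was 1.91 to 2.24 in BALB/c and 2.08 to 2.38 in C57BL/6J. In A/J it was above both, at 2.41 in A/J 3 and up to 3.75 in the other two libraries.

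Pde6g, the gamma subunit that holds the enzyme inactive in the dark, measured 1177.09, 1157.57 and 1159.28 RPKM in A/J. Its values were 1612.94, 1520.49 and 1645.17 RPKM in BALB/c and 1677.29, 1428.49 and 1486.91 RPKM in C57BL/6J. Every A/J library lay below every other library. The log2 change from BALB/c to A/J was -0.52 (SE 0.13, limma adjusted p = 0.074), and from C57BL/6J to A/J -0.28 (SE 0.13, limma adjusted p = 0.29). BALB/c and C57BL/6J overlapped, with a change of 0.24 (SE 0.13, limma adjusted p = 0.47). The A/J to BALB/c change passed when only those strains were fitted (-0.52, limma adjusted p = 0.025), without A/J 3 (-0.50, limma adjusted p = 0.031) and without C57BL/6J 3 (-0.52, limma adjusted p = 0.023). Under quantile normalization it was 0.04, and BALB/c against C57BL/6J was -0.18. The A/J to C57BL/6J change was -0.03 scaled to the rod reference genes, -0.16 after the GC correction and -0.15 under quantile normalization. Pde6g over Pde6b was 2.51 to 2.85 in A/J, 2.83 to 3.31 in C57BL/6J and 3.58 to 4.11 in BALB/c.

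Of the transducin genes, Gnat1 measured 3312.78, 3046.64 and 3032.06 RPKM in A/J. It measured 3584.26, 3820.82 and 3810.71 RPKM in BALB/c and 4523.93, 3430.02 and 4403.77 RPKM in C57BL/6J. A/J was below the other strains in every library, by -0.28 against C57BL/6J (SE 0.14, limma adjusted p = 0.31) and -0.33 against BALB/c (SE 0.14, limma adjusted p = 0.22), neither of which passed. Scaled to the rod reference genes these changes were -0.02 and -0.16, and after the GC correction -0.14 and -0.16. BALB/c and C57BL/6J differed by 0.05 (SE 0.14, limma adjusted p = 0.94). Quantile normalization turned the direction of both BALB/c comparisons, to -0.67 for BALB/c against C57BL/6J and 0.34 for A/J against BALB/c.

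Gnb1 pairs with the gamma subunit in the beta-gamma dimer of rods and occurs in many other cells of the eye. Its RPKM were 1083.07, 1134.57 and 893.25 in A/J and 1014.79, 1067.79 and 1058.76 in BALB/c. The C57BL/6J libraries had 1025.16, 820.19 and 1376.16. The C57BL/6J libraries alone spanned the values of all others. The log2 changes were 0.08, 0.18 and -0.09 in A/J against C57BL/6J, BALB/c against C57BL/6J and A/J against BALB/c (SE 0.17 each), with limma adjusted p-values of 0.76, 0.75 and 0.75. Each of these directions turned under at least 1 other scaling.

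Gngt1, the gamma subunit particular to rods, had the widest range over the libraries. It measured 489.35, 542.31 and 242.19 RPKM in A/J, 528.85, 414.26 and 475.40 RPKM in BALB/c, and 431.81, 320.72 and 197.89 RPKM in C57BL/6J. A/J 3 and C57BL/6J 3 were the lowest libraries, and the ranges of the strains overlapped. The log2 change against C57BL/6J was 0.52 in A/J (SE 0.38, limma adjusted p = 0.41) and 0.82 in BALB/c (SE 0.38, limma adjusted p = 0.39). Between A/J and BALB/c it was -0.30 (SE 0.38, limma adjusted p = 0.62), and 0.08 without A/J 3. Without A/J 1 and A/J 2 the A/J change against C57BL/6J was -0.25. Its transcript had the lowest GC content of the 9, at 36.7%, and after the GC correction the A/J change against C57BL/6J was 0.10 while the BALB/c change was 0.92 and passed (limma adjusted p = 0.031). Gnat1 over Gngt1 reached 22.3 in C57BL/6J 3 and was 12.5 or less in every A/J and BALB/c library.

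Cnga1 forms the channel that cyclic GMP holds open in the dark. Its RPKM were 274.56, 308.66 and 145.12 in A/J and 169.79, 129.18 and 137.94 in BALB/c. The C57BL/6J libraries had 210.02, 163.15 and 151.78. A/J 1 and A/J 2 were above all other libraries, and A/J 3 was within the BALB/c range. The log2 change from C57BL/6J to A/J was 0.52 (SE 0.29, limma adjusted p = 0.33), and 0.60 from BALB/c to A/J (SE 0.29, limma adjusted p = 0.26). Between BALB/c and C57BL/6J it was -0.08 (SE 0.29, limma adjusted p = 0.96). Without A/J 3 the A/J changes were 0.87 (limma adjusted p = 0.023) and 0.95 (limma adjusted p = 0.014), and without A/J 1 and A/J 2 they were -0.19 and -0.11. The Cnga1 transcript had the lowest GC content after Gngt1, at 42.6%, and the GC correction took the A/J change against C57BL/6J to 0.26. Cnga1 over Gngt1 was 0.561 to 0.599 in A/J, 0.29 to 0.321 in BALB/c, then 0.486 to 0.767 in C57BL/6J.

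**Figure D4:**
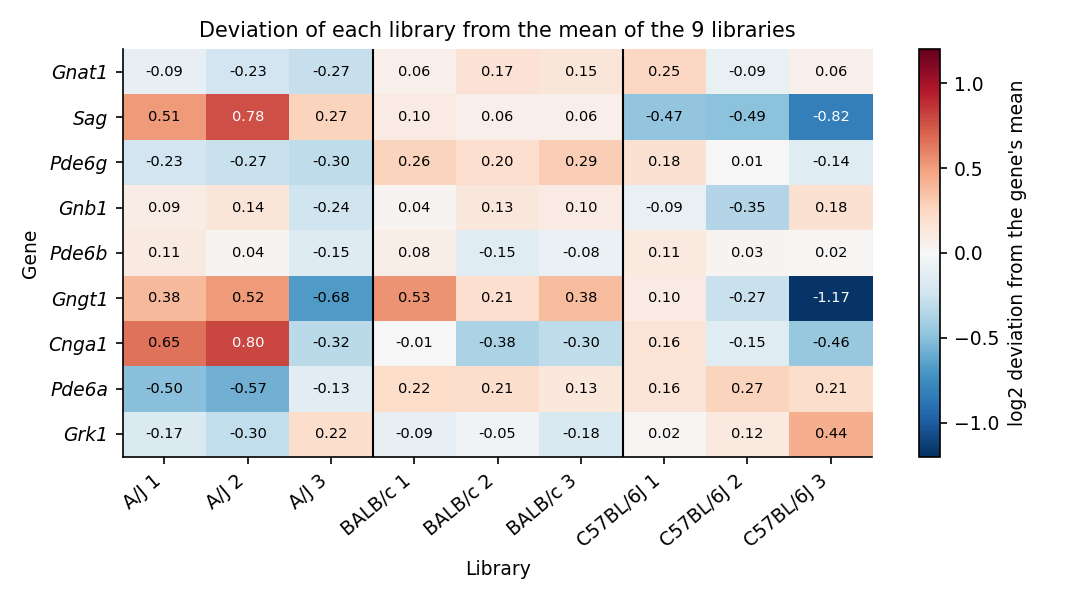
Deviation of each library from the gene's mean over the 9 libraries, in log2 of scaled RPKM plus 0.5, for the 9 genes in order of level; red is above the mean and blue below. Sag is 0.27 to 0.78 in A/J and -0.82 to -0.47 in C57BL/6J, whereas Gngt1 and Cnga1 are high in A/J 1 and A/J 2 and low in A/J 3 (-0.68 and -0.32).

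Within A/J the 9 genes thus fell apart by library. In A/J 1 and A/J 2, Cnga1 was 0.65 and 0.80 and Gngt1 0.38 and 0.52 above their means on the log2 scale, while Pde6a was at -0.50 and -0.57. In A/J 3, Cnga1 and Gngt1 were below their means and Pde6a was at -0.13. Sag was above its mean in all A/J libraries, Pde6g and Gnat1 below theirs. In C57BL/6J 3, Gngt1 was at -1.17 and Grk1 at 0.44, the lowest and the highest deviation of that library.

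Among the other genes of the rod pathway most changes in A/J were below 0, but few passed the test. Of 15 listed, 14 were in the tables: they include the exchanger Slc24a1, guanylate cyclases and their activators, recoverin, the RGS9 complex, and chaperones of transducin and phosphodiesterase. Between A/J and C57BL/6J, 13 of 14 had a change below 0, where 6604 of all 12920 genes tested did. None of the 14 was called, and their median was -0.32. Directions and medians of this list were not taken with the GC correction or with libraries left out. The lowest of the 14 was Rgs9, which speeds transducin's return to rest, at -1.01 (SE 0.44, limma adjusted p = 0.28). Rgs9 measured 119.48 RPKM in C57BL/6J 3, beside 32.52 and 40.30 RPKM in C57BL/6J 1 and C57BL/6J 2. The highest was Pde6d, a carrier of prenylated proteins, at 0.27. Between BALB/c and C57BL/6J the median was -0.01 and none was called, with Pdc at -0.55 and Guca1a at 0.44. Between A/J and BALB/c the median was -0.23 and 1 of 14 was called: Guca1a, an activator of guanylate cyclase, fell by 0.71 (SE 0.15, limma adjusted p = 0.048), from 670 ± 37.1 to 432 ± 62 RPKM (SD, n = 3 each). That call was lost under 13 of 23 alternatives, among them the GC correction (-0.48, limma adjusted p = 0.14) and, each in turn, the omission of A/J 1, A/J 2, C57BL/6J 1 or any BALB/c library (limma adjusted p-values of 0.073 to 0.26).

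Among the 16 rod reference genes the medians were -0.39, -0.05 and -0.23 in A/J against C57BL/6J, BALB/c against C57BL/6J and A/J against BALB/c. A single call was made, Fscn2, an actin-bundling protein of photoreceptors, which fell by 0.63 in A/J against C57BL/6J (SE 0.13, limma adjusted p = 0.042). That call was lost under 14 of 23 alternatives, among them the GC correction (-0.31, limma adjusted p = 0.32) and the omission of any library but A/J 3 (limma adjusted p-values of 0.073 to 0.17). The extremes in that comparison were Reep6 at -0.63 and Rp1h at 0.46.

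Cones use separate genes for most of these steps. Of 10 cone counterparts, 1 was called against C57BL/6J in each comparison and 0 between A/J and BALB/c, and it was the cone phosphodiesterase Pde6c. Pde6c measured 4.47, 3.74 and 4.89 RPKM in A/J, 2.18, 1.53 and 2.37 RPKM in BALB/c, and 19.82, 17.67 and 33.47 RPKM in C57BL/6J. It fell by 2.16 on the log2 scale in A/J (SE 0.21, limma adjusted p = 0.00072) and by 3.06 in BALB/c (SE 0.21, limma adjusted p = 8.2e-05), and both calls held under all 23 alternatives run for them. Of the rod catalytic subunits, Pde6a had changes of -0.61 and -0.03 and Pde6b of -0.06 and -0.10 in the same comparisons. The cone arrestin Arr3, the counterpart of Sag, was at -0.57 in A/J (SE 0.18, limma adjusted p = 0.16) and -0.70 in BALB/c (SE 0.18, limma adjusted p = 0.084), with every library of these strains below C57BL/6J. Medians of the 10 genes were -0.32, -0.44 and 0.06 in A/J against C57BL/6J, BALB/c against C57BL/6J and A/J against BALB/c.

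None of 9 paralogs used outside photoreceptors was called, with medians of -0.01, 0.11 and -0.20 in the same order. The ubiquitous arrestin Arrb1 was the lowest against C57BL/6J, at -1.05 in A/J and -0.69 in BALB/c (SE 0.37 each, limma adjusted p = 0.21 and 0.48). Its level was 32.63 RPKM in C57BL/6J 3, beside 9.44 and 13.07 RPKM in C57BL/6J 1 and C57BL/6J 2. Against C57BL/6J, Gnai3 was the highest in A/J at 0.62. Little sequence was shared with other genes: 5.2% or less of the 31-base words of any of the 9 transcripts occurred in another gene, with Sag (5.2%), Pde6g (5.1%) and Grk1 (4.5%) the highest.

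Finally, the genes whose profiles over the 9 libraries were most like these were sought among all genes tested, by Pearson's r of log2 values as a description. The libraries of a strain share their background, and the 9 values are not independent of the clusters that strains and libraries form. Closest to the mean profile of the 9 genes were Nqo1 (r = 0.944), Fth1 (0.930), Fadd (0.924), Cma1 (0.918) and Gjb5 (0.915). Closest to Sag were Car12 (0.991), Nnt (0.989), Itga4 (0.989), Spata1 (0.986) and Col4a3 (0.983). Nnt, the mitochondrial nicotinamide nucleotide transhydrogenase, had means of 9.26 ± 1.1, 6.66 ± 0.085 and 4.43 ± 0.612 RPKM from A/J through BALB/c to C57BL/6J (SD, n = 3 each), and Itga4, an integrin subunit, 9.18 ± 2.26, 5.27 ± 0.767 and 1.98 ± 0.241 RPKM.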

How the data were processed

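RNA of whole eyes was measured by sequencing in 9 libraries, 3 per strain. For each library the authors deposited 13089 genes with a value of 2 decimals, taken here as RPKM because value times transcript length sums to about the total RPKM would give (108.5% to 111.7% of it, and 126.6% in C57BL/6J 3); the header names no unit. Per the submitters' processing notes, CASAVA 1.7, GenomeStudio and the mouse build mm9 were used; the counting rule is not given in the sources used here, and strand is not stated. No read counts could be recovered from the values, so the depth is unknown and no counting interval is given.

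Each library was scaled by its median-of-ratios size factor (0.931 to 1.158), and log2 was taken after adding 0.5, which understates changes of low genes. Genes at 1 or more in at least 3 libraries were tested (12920; 169 were left out; all 9 members passed) with limma 3.58.1 in R 4.3.3, strain as the only term, trended and robust variances, 6 residual degrees of freedom before moderation, two-sided, with Benjamini-Hochberg adjustment over all genes tested. The fit was tested first on simulated data, with noise drawn separately for each gene and library. That setting lacks the deviations shared between genes that these libraries show, so it cannot tell how the fit handles them. Means ± SD are of deposited RPKM, and log2 changes are on the log2(scaled RPKM + 0.5) scale with limma's SE.

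The genes named are the 9 members, members of the fixed lists that were called or had the highest or lowest change, and the 5 genes most like the members and most like Sag; Arr3, Prph2, Nrl and the list members named by role were added after their values were seen. The members and lists were chosen with earlier results of these data known. Transcript GC content and length came from GENCODE annotation of another build (GRCm38), for 98.2% of genes. Alternatives were other pseudocounts, no filter, other scalings, a GC correction, a replicate block, other variance settings, fits of 2 strains alone, and left-out libraries; running them for Guca1a, Pde6c, Fscn2 and Cabp5 was chosen after seeing the data.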

Additional observations from a re-analysis of the deposited data

How the results depend on the processing

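Alternatives were run for the 27 changes of the 9 genes in 3 comparisons, 621 values in all. Of these, 553 kept their direction and their side of the threshold, 26 newly passed, 2 no longer passed (both Sag between A/J and C57BL/6J) and 40 changed sign. The number of the 9 genes called between A/J and C57BL/6J was 1, and 2 with values as deposited, 2 with the GC correction, 7 without A/J 3 and C57BL/6J 3, 0 without A/J 1 and A/J 2, 0 in a fit of these strains alone, and 1 to 3 with any 1 library left out. Between BALB/c and C57BL/6J it was 0, and 1 with the GC correction, with or without the replicate block, 2 without A/J 3 and C57BL/6J 3, and 0 to 1 with 1 library left out. Between A/J and BALB/c it was 0, and 4 without A/J 3 and C57BL/6J 3, 1 (Pde6g) in a fit of these strains alone, and 0 to 4 with 1 library left out. The F test gave 1, and 3 with the GC correction, 2 with the GC correction and the replicate block, 5 without A/J 3 and C57BL/6J 3, 0 without A/J 1 and A/J 2, and 0 to 3 with 1 library left out. Neighbours apart in the order of levels were 2, and 2 to 4 with 1 library left out. Calls over all genes moved as well: between A/J and C57BL/6J they were 348, and 357 with values as deposited and 515 with the GC correction. In the other comparisons they are not given here for the GC correction or for fits of 2 strains alone. The counts of the 9 genes under those settings, the Pde6g call among them, therefore have no share beside them. For the F test, calls over all genes were not counted under these alternatives, so its counts have no share to be set against. The cause of these shifts was not tested.

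None of the following changes of direction was called. Without A/J 1 and A/J 2, A/J minus C57BL/6J was -0.25 for Gngt1, -0.17 for Gnb1, -0.19 for Cnga1 and 0.01 for Grk1, and A/J minus BALB/c was -0.12 for Pde6b and -0.11 for Cnga1. Without A/J 3 and C57BL/6J 3, Pde6b was 0.00 in A/J minus C57BL/6J, and A/J minus BALB/c was 0.08 for Gngt1, 0.03 for Gnb1 and -0.12 for Grk1. As deposited, Gnb1 was -0.03 in A/J minus C57BL/6J, and BALB/c minus C57BL/6J was -0.13 for Gnat1 and 0.00 below 0 for Gnb1. With the GC correction, with or without the replicate block, Gnb1 was -0.01 in A/J minus C57BL/6J and Grk1 -0.04 in A/J minus BALB/c. Quantile normalization gave 0.02 for Pde6b in A/J minus C57BL/6J, -0.67 for Gnat1, -0.05 for Gnb1 and -0.18 for Pde6g in BALB/c minus C57BL/6J, and 0.34, 0.16 and 0.04 for the same genes in A/J minus BALB/c. Scaling to the rod reference genes gave 0.20 for Pde6b in A/J minus C57BL/6J, 0.06 for Pde6a and 0.01 for Cnga1 in BALB/c minus C57BL/6J, and 0.07 for Gnb1 in A/J minus BALB/c; scaling to genes other than crystallins gave -0.01 for Gnat1 in BALB/c minus C57BL/6J. With 1 library left out, A/J minus C57BL/6J ranged from -0.05 to 0.22 for Gnb1 and -0.11 to 0.02 for Pde6b. BALB/c minus C57BL/6J ranged from -0.03 to 0.14 for Gnat1, -0.06 to 0.00 for Pde6a and -0.24 to 0.07 for Cnga1. A/J minus BALB/c ranged from -0.53 to 0.08 for Gngt1, -0.17 to 0.03 for Gnb1, -0.01 to 0.12 for Pde6b and -0.12 to 0.12 for Grk1.

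Deviations of same-numbered libraries correlated at -0.51 to 0.54, over 0.1 in 5 of 9 pairs. They were 0.34 to 0.54 for number 1, -0.51 to 0.02 for number 2 and 0.09 to 0.47 for number 3. Pairs of unlike number reached 0.60. Whether the numbers pair the libraries cannot be told from these values, because the deviations also follow GC content. With the replicate block, Sag was 1.11 (limma adjusted p = 0.0087) and the counts of the 9 genes called were the same in every comparison. Over all genes, calls between A/J and C57BL/6J (348) ranged from 153 to 3630 with 1 library left out, the highest without A/J 3, and were 5043 without A/J 3 and C57BL/6J 3, 126 without A/J 1 and A/J 2 and 138 in a fit of these strains alone. For BALB/c and C57BL/6J (399) they ranged from 149 to 630, and were 1877 without A/J 3 and C57BL/6J 3. For A/J and BALB/c (320) they ranged from 79 to 4463, and were 7700 and 69 without the same pairs of libraries. The median change of all genes was -0.11, -0.17 and 0.05 as deposited and 0.22, 0.07 and 0.14 scaled to the rod reference genes, with the comparisons in the order used here. The unknown depth sets no limit that can be stated for these abundant genes.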
